A study of Mus musculus with 6 samples.

Results

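The transcripts of 10 histone chaperone genes were followed through the knockdown of one of them, *Npm1*. The set holds the nucleoplasmin family genes *Npm1* and *Npm3* together with *Nap1l1*, *Nap1l4*, *Set*, *Anp32a*, *Anp32b*, *Anp32e*, *Asf1a* and *Ssrp1*. These 10 genes were picked by symbol from the 26656 gene identifiers of the deposited tables, and all 10 are listed there. N2a cells, a mouse neuroblastoma line of wild-type genotype, received pLKO.1-shNpm1, a plasmid coding for an shRNA against *Npm1* (NPM1 KD), or pLKO.1-shCTR, which codes for a non-target shRNA (CTR). RNA was isolated at 72 h, after 3 days in vitro, and cDNA amplified by PCR was sequenced on a nanopore device that reads long molecules, with 3 libraries per condition. Puromycin at 9.3 µg/ml from 24 h after transfection is given for the knockdown experiments, and it is not said separately whether CTR cells were selected too. NPM1 KD rests on 1 shRNA sequence. The design text speaks of 3 biological replicates and the treatment protocol of 2, so part of the spread between libraries may be technical. The comparison asks whether the paralogue *Npm3* or another histone chaperone has more RNA when *Npm1* has less.

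Histone chaperones bind free histones, keep them from sticking to nucleic acids and hand them to or take them from nucleosomes during replication, transcription and repair. They prefer either H2A-H2B dimers or H3-H4, and several of them form families of paralogues with long acidic stretches. NPM1 (nucleophosmin) is an abundant nucleolar member of the nucleoplasmin family that also takes part in ribosome assembly, and its paralogue NPM3 can enter oligomers with it. In a proliferating line such as N2a, chaperone genes are in constant use because new chromatin has to be made at every cell cycle.

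The deposited values are regularized log (rlog) values, which are on the log2 scale, normalized for library size and shrunk for genes with few reads. All 75364 values of size 1 or more are whole numbers, so 1 step is 2-fold and a library can hide a smaller difference. The limma test covered the 5752 genes whose rlog values averaged log2 of 10 or more, with Benjamini-Hochberg adjustment over all of them. Total reads per library are unknown. The relative depth worked out from genes with few reads was 1.11 to 1.30 in CTR and 0.784 to 0.961 in NPM1 KD, so each NPM1 KD library was shallower than each CTR library; the part of depth in the differences was not tested. Between 1217 and 1575 of the tested genes differed in value between libraries of the same condition, and between 1567 and 2062 between conditions. Of 14 markers of sympathoadrenal neuroblastoma cells 9 had a mean normalized count of at least 10 and *Hand1* was at 0, whereas all 16 markers of other cell types were below 10, 11 of them at 0. In bulk RNA, fewer cells with a transcript and less of it per cell cannot be told apart.

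*Npm1* was the only one of the 9 tested genes of the set that passed the threshold of an adjusted p below 0.05 upon NPM1 KD. A gene that missed this threshold is not shown to be unchanged. Even a rise of 1 step in each NPM1 KD library missed it, as none of the 128 tested genes with a log2 fold change of 1 passed. The genes called higher had a log2 fold change of 1.33 or 1.67. The absence of higher chaperone genes in this fit therefore says little about rises of up to 1 step. *Rps13*, for example, had 10 in each CTR and 11 in each NPM1 KD library, with an adjusted p of 0.0791 from limma. The rlog value of *Npm1* (ENSMUSG00000057113) was 10 in CTR replicates 1, 2 and 3 and 8 in NPM1 KD replicates 1, 2 and 3. No library of one condition reached the value of the other, and the replicates of each condition were identical after rounding. This was a log2 fold change of −2 (SE 0.334, n = 3 per group, 95% interval −2.66 to −1.34, adjusted p = 3.23e-06 from limma), which leaves 25.0% of the CTR level with an interval from 15.9% to 39.4%. The SD of *Npm1* within each condition was 0, so this SE, the interval and the p rest on the lower limit of 0.0833 set on the variance and on the spread pooled over genes, not on the spread of *Npm1* itself, and the same holds for each tested gene with a single value per condition. Rounding alone would allow any difference between −3 and −1. A rounding error shared by the replicates of a condition is not covered by this interval or by those of the other tested genes. Over all tested genes 24 were lower (0.417%) and 4 higher (0.0695%), and 3.41% had NPM1 KD libraries that were all below the CTR libraries (2.19% all above). When the unrounded values were drawn at random within the rounding interval the difference was −1.97 but its adjusted p was 0.855, and 0 of 5752 genes passed, with 286 at an unadjusted p below 0.05. The authors' mean normalized count of *Npm1* over the 6 libraries was 587.

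**Figure D1:**
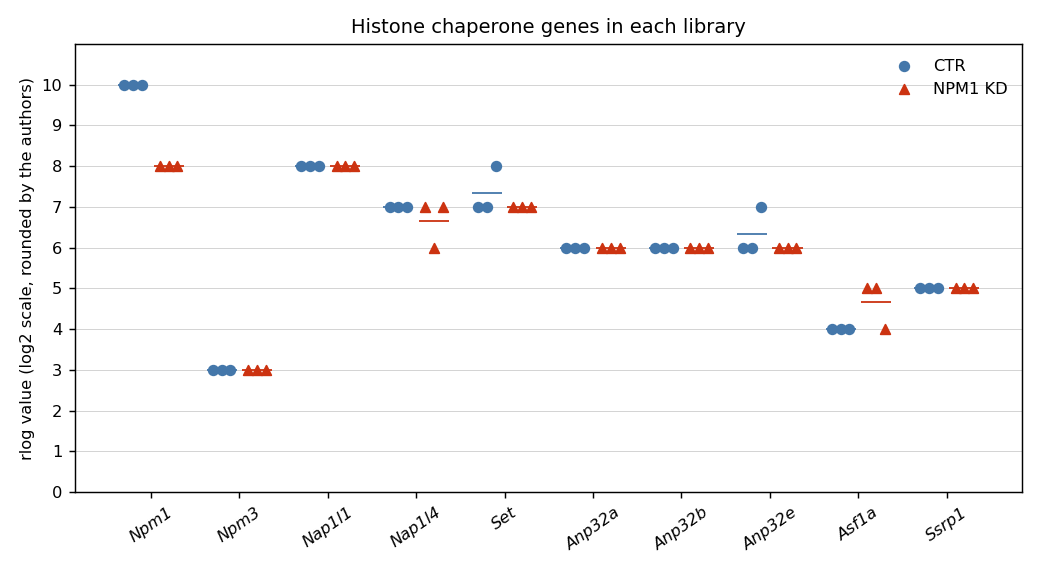
The rlog value (log2 scale, whole numbers as deposited) of each of the 10 chaperone genes in the 3 CTR libraries (blue circles) and the 3 NPM1 KD libraries (red triangles), with a line at each group mean. *Npm1* sits at 10 in CTR and 8 in NPM1 KD, while the other 9 genes have overlapping libraries.

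*Npm3*, the paralogue that can join NPM1 in oligomers, showed no detectable rise upon NPM1 KD. *Npm3* (ENSMUSG00000056209) had an rlog value of 3 in all 6 libraries, which is below the level needed for the test. Its mean normalized count was 7.33, so whole reads could be worked out for it. CTR replicates 1, 2 and 3 had 6, 11 and 13 *Npm3* reads, and NPM1 KD replicates 1, 2 and 3 had 8, 3 and 5. Divided by the relative depth of each library these were 4.83, 8.45 and 11.7 in CTR against 10.2, 3.60 and 5.21 in NPM1 KD. The highest *Npm3* level was in a CTR library and the lowest in an NPM1 KD library, but NPM1 KD replicate 1 was above CTR replicates 1 and 2, so the groups overlapped. The mean level was 8.32 ± 3.42 in CTR and 6.34 ± 3.45 in NPM1 KD (SD, n = 3 each), and an exact two-sided permutation test gave p = 0.60, where 3 libraries against 3 cannot give less than 0.10. In limma voom over the 4332 genes with whole reads, the log2 fold change of *Npm3* was −0.36 (SE 0.486, 95% interval −1.33 to 0.61, adjusted p = 0.796), or 77.9% of the CTR level with an interval from 39.6% to 153%. The interval holds rises of *Npm3* up to 153% of the CTR level. Its upper end is not a limit of detection, and a rise beyond it could also have missed the threshold. Leaving out 1 library at a time gave *Npm3* log2 fold changes between −0.72 (without CTR replicate 1) and −0.09 (without NPM1 KD replicate 2). In this fit 0 of 4332 genes passed in either direction (0.0%), with 529 at an unadjusted p below 0.05.

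*Npm2*, which codes for the oocyte member of the family, is named here because it completes the family and not by the rule for named genes. It had a mean normalized count of 0.961 and rlog values from −0.27 to 0.08. The highest of the 6 *Npm2* values was that of CTR replicate 3, and the NPM1 KD libraries lay between −0.26 and −0.16. At this depth *Npm2* was close to undetected in both conditions.

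None of the 3 genes of the nucleosome assembly protein family passed the test. *Nap1l1* (ENSMUSG00000058799), whose product shuttles H2A-H2B dimers between cytoplasm and nucleus, had an rlog value of 8 in all 6 libraries. Its log2 fold change was 0 with a 95% interval of −0.67 to 0.67, from 62.7% to 160% of the CTR level. *Nap1l4* (ENSMUSG00000059119), a closely related H2A-H2B chaperone, had 7, 7 and 7 in CTR against 7, 6 and 7 in NPM1 KD. Only NPM1 KD replicate 2 stood below the others, and the log2 fold change was −0.33 (SE 0.347, interval −1.01 to 0.35, adjusted p = 0.713). *Set* (ENSMUSG00000054766), which codes for a NAP-like chaperone that also inhibits histone acetylation and protein phosphatase 2A, had 7, 7 and 8 in CTR against 7, 7 and 7 in NPM1 KD. Here CTR replicate 3 alone stood above the rest, and the log2 fold change was again −0.33 (SE 0.347, interval −1.01 to 0.35, adjusted p = 0.713). Without that library the *Set* difference was 0, and the *Nap1l4* difference was 0 without NPM1 KD replicate 2.

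The ANP32 family, small acidic proteins with leucine-rich repeats, gave a like picture. *Anp32a* (ENSMUSG00000032249), a partner of SET in the inhibition of histone acetylation, had an rlog value of 6 in each library. *Anp32b* (ENSMUSG00000028333), a chaperone linked to transcription and cell proliferation, also had 6 in each library. Both had a log2 fold change of 0 with an interval of −0.67 to 0.67. *Anp32e* (ENSMUSG00000015749) codes for a chaperone that removes the variant H2A.Z from nucleosomes. *Anp32e* had 6, 6 and 7 in CTR against 6, 6 and 6 in NPM1 KD, again with CTR replicate 3 alone above the rest. Its log2 fold change was −0.33 (SE 0.343, interval −1.01 to 0.34, adjusted p = 0.713), and 0 without CTR replicate 3.

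*Asf1a* was the only one of the 9 tested genes with a positive difference, and it did not pass the adjusted threshold. *Asf1a* (ENSMUSG00000019857) codes for a chaperone that passes H3-H4 dimers to the CAF-1 and HIRA complexes. Its rlog value was 4, 4 and 4 in CTR against 5, 5 and 4 in NPM1 KD. NPM1 KD replicates 1 and 2 were 1 step above CTR, whereas replicate 3 was at the CTR value, so the groups touched. Its log2 fold change was 0.67 (SE 0.334, interval 0.01 to 1.32, unadjusted p = 0.046, adjusted p = 0.33 from limma), from 101% to 250% of the CTR level. Rounding alone would allow any *Asf1a* difference between −0.33 and 1.67. An unadjusted p below 0.05 with higher values was found in 6.07% of all tested genes. The adjusted p of *Asf1a* was between 0.179 and 1.0 under the other settings and the difference between 0.62 and 0.69, and leaving out 1 library gave 0.50 to 1.00.

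The mean normalized count of *Asf1a*, 21.0, narrowed its reads further. Of 34 sets of whole reads that give this mean, 2 also follow the rounded rlog values. In the first set, CTR replicates 1, 2 and 3 had 17, 22 and 23 reads and NPM1 KD replicates 22, 25 and 16. Divided by relative depth these were 13.7, 16.9 and 20.6 in CTR against 28.1, 30.0 and 16.7 in NPM1 KD. In this set, NPM1 KD replicates 1 and 2 lay above each CTR library and replicate 3 lay among them, with means of 17.1 ± 3.48 and 24.9 ± 7.22 (SD, n = 3 each) and a ratio of 1.46. The second set had 22, 1 and 13 reads in CTR and 18, 52 and 10 in NPM1 KD, with a far wider spread between replicates and a ratio of 3.18. Groups overlapped in both sets. Which set holds could not be told from the tables, and neither was tested.

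*Asf1b*, the paralogue of *Asf1a* that is linked to cell proliferation, differed in the opposite direction. It is named for this relation and not by the rule for named genes. *Asf1b* had 4, 5 and 5 in CTR against 4, 4 and 4 in NPM1 KD, so CTR replicate 1 had the same value as the NPM1 KD libraries. On the log2 scale the fold change was −0.67 (SE 0.334, interval −1.32 to −0.01, unadjusted p = 0.046, adjusted p = 0.33). Neither of the paralogues passed the adjusted threshold, and the difference between their differences was not tested.

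*Ssrp1* and its partner in the FACT complex, which moves H2A-H2B dimers out of and into nucleosomes during transcription, did not pass the test either. *Ssrp1* (ENSMUSG00000027067) had an rlog value of 5 in all 6 libraries and a log2 fold change of 0 with an interval of −0.65 to 0.65, from 63.9% to 156% of the CTR level. *Supt16*, which codes for the other FACT subunit and is named for this reason, had 4, 7 and 11 reads in CTR and 4, 11 and 13 in NPM1 KD. Divided by relative depth, these were 3.22, 5.38 and 9.87 in CTR against 5.10, 13.2 and 13.5 in NPM1 KD. Both groups had 1 low library at replicate 1, and NPM1 KD replicates 2 and 3 were above each CTR library. The log2 fold change of *Supt16* in the whole reads was 0.87 (SE 0.469, interval −0.07 to 1.81, adjusted p = 0.445).

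Over the 9 tested genes of the set, 1 was lower and 0 were higher upon NPM1 KD, against 0.417% lower and 0.0695% higher over all tested genes. The lower gene was *Npm1*, the target of the shRNA, so this call is no result about chaperone genes as a group. Among the other 8 tested genes 0 were lower and 0 higher. Of the 9 tested genes, 4 had a single value in all 6 libraries, against 40.2% of all tested genes. The log2 fold change was above 0 in 1, below 0 in 4 and exactly 0 in 4, with a median of 0. Without *Npm1* it was above 0 in 1 (12.5%), below 0 in 3 (37.5%) and 0 in 4 (50.0%). Over all tested genes it was above 0 in 24.6%, below 0 in 27.4% and 0 in 48.0%, also with a median of 0. Apart from *Npm1*, the intervals of the tested genes reached from 49.5% (*Set*) to 250% (*Asf1a*) of the CTR level. Without *Asf1a* the highest upper end was 160% (*Nap1l1*).

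**Figure D2:**
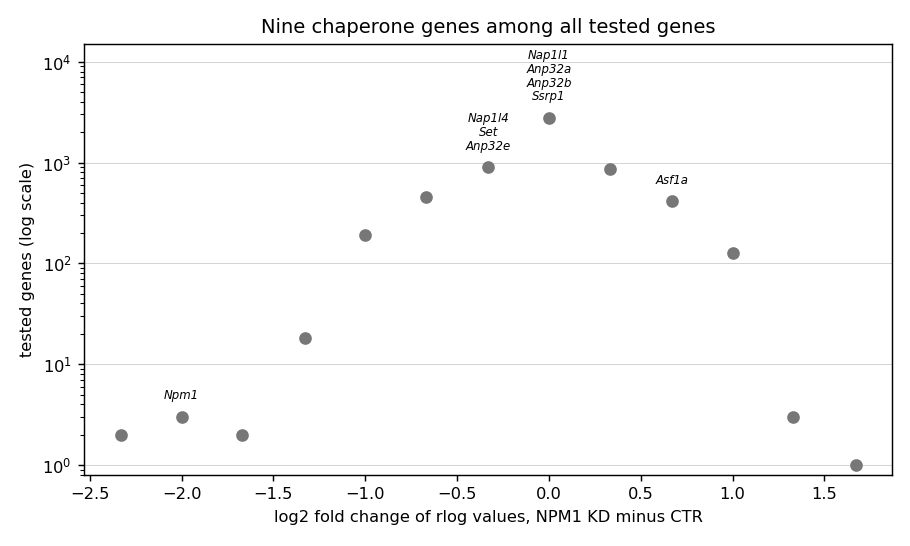
Number of tested genes (log axis) at each log2 fold change of the rlog values (NPM1 KD minus CTR, in even steps because of the rounding), over all 5752 tested genes. The 9 tested chaperone genes are written above the point at their value: *Npm1* at −2 shares it with 2 other genes, 3 genes are at −0.33, 4 at 0 and *Asf1a* at 0.67.

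Beyond these genes, 46 further histone chaperone genes were listed, and 29 of them could be tested. At an adjusted p below 0.05, 0 of the 29 were higher and 0 were lower, with 0 higher and 2 lower (*Hjurp* and *Asf1b*) at an unadjusted p below 0.05, where 6.07% and 8.07% of all tested genes lay. Differences were above 0 in 1 (3.45%), below 0 in 11 (37.9%) and 0 in 17 (58.6%) of them, with a median of 0. Over all tested genes these shares were 24.6%, 27.4% and 48.0%. All 3 tested genes of the other NAP and SET relatives, all 17 of the H3-H4 chaperones and all 9 of the H2A-H2B, H1 and transcription-linked chaperones missed the adjusted threshold.

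*Hjurp*, whose product places the centromeric H3 variant CENP-A, was the 1 gene of these 29 whose NPM1 KD libraries all lay below CTR, a share close to the 3.41% of all tested genes. It had 6, 6 and 6 in CTR against 5, 5 and 5 in NPM1 KD. Its log2 fold change was −1 (SE 0.336, interval −1.66 to −0.34, adjusted p = 0.0791), or 50.0% of the CTR level. With no limit on the variance the adjusted p was 1.59e-11 and without the intensity trend 0.0304, so the call depends on these settings. The tables list the same gene identifier also under the symbol A730008H23Rik.

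Among the abundant chaperone genes, *Ptma* (prothymosin alpha, an acidic H1 binding protein) had 10, 9 and 9 in CTR and 9 in each NPM1 KD library. *Ncl*, which codes for the nucleolar chaperone nucleolin, had 9 in all libraries except NPM1 KD replicate 2, which had 8. Both differed by −0.33 on the log2 scale (adjusted p = 0.713), with 1 library apart from the rest. *Rbbp7*, a subunit of several histone-modifying complexes that binds H4, had 8 in all 6 libraries. Its paralogue *Rbbp4* had 7, 8 and 7 in CTR against 7, 7 and 8 in NPM1 KD, so 1 library of each condition was higher. *Mcm2*, a helicase subunit that holds H3-H4 at the replication fork, had 6, 6 and 7 in CTR against 7, 6 and 6 in NPM1 KD. *Nasp*, which guards the pool of soluble H3-H4, had 6 in all 6 libraries. These last 4 genes had a log2 fold change of 0.

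Of the remaining abundant genes, *Dek*, which codes for a chromatin protein that carries H3.3, had 6, 6 and 7 in CTR and 6 in each NPM1 KD library. *Hat1*, which codes for the acetyltransferase of new H4, had 6 in all libraries except NPM1 KD replicate 2, which had 5. Each differed by −0.33 on the log2 scale (adjusted p = 0.713). *Znhit1*, a subunit of the SRCAP complex that deposits H2A.Z, was the only one of the 29 with a positive difference. It had 5, 6 and 5 in CTR against 6, 6 and 5 in NPM1 KD, a log2 fold change of 0.33 (SE 0.336, interval −0.33 to 0.99, adjusted p = 0.713). *Vps72*, which codes for the H2A.Z chaperone subunit of the same complex, had 5 in all 6 libraries.

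**Figure D3:**
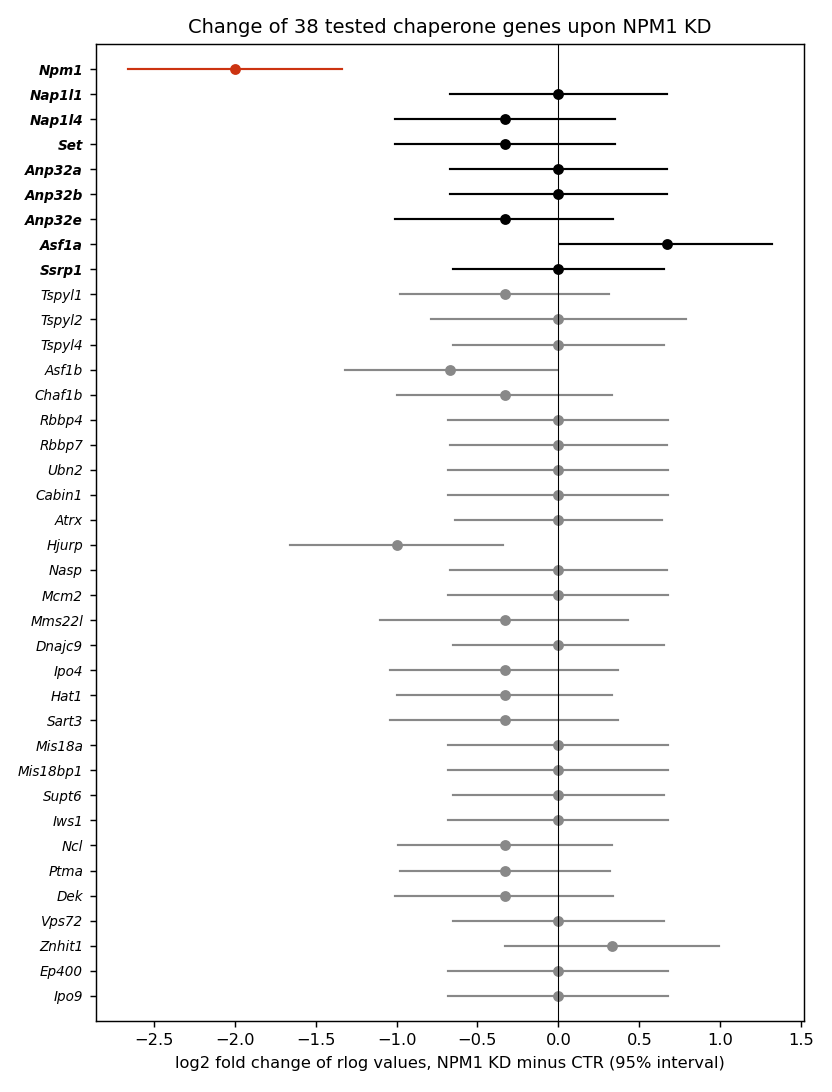
Log2 fold change of the rlog values (NPM1 KD minus CTR) with its 95% interval for the 9 tested genes of the set (bold names, black or red) and the 29 other tested chaperone genes (grey); red marks an adjusted p below 0.05. *Npm1* at −2 is the only red gene, and *Hjurp* at −1 is the next lowest.

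Of the other untested chaperone genes, 12 had a mean normalized count from 2 to below 10 and were fitted with their whole reads. In limma voom 0 of the 12 passed at an adjusted or an unadjusted p below 0.05. The unadjusted threshold was passed by 5.19% of the 4332 fitted genes as higher and 7.02% as lower. The log2 fold change was above 0 in 8 (66.7%) and below 0 in 4 (33.3%) of them, with a median of 0.35. Over all 4332 genes with whole reads it was above 0 in 45.7% and below 0 in 54.3%, with a median of −0.08. *Ubn1*, which codes for a subunit of the HIRA complex that deposits H3.3, was the only one of the 12 without overlap. *Ubn1* had 7, 8 and 4 reads in CTR against 5, 9 and 7 in NPM1 KD, which after division by relative depth were 5.64, 6.14 and 3.59 for CTR against 6.38, 10.8 and 7.29 for NPM1 KD. Each NPM1 KD library was above each CTR library, by a small margin between NPM1 KD replicate 1 and CTR replicate 2, and 7.29% of the genes with whole reads had such a separation (12% had the reverse). Its log2 fold change was 0.64 (SE 0.485, interval −0.34 to 1.61, adjusted p = 0.591). *Hira*, named because it codes for the core of the same complex, had 2, 3 and 8 reads in CTR and 3, 9 and 7 in NPM1 KD, with a log2 fold change of 1.15 (SE 0.586, interval −0.02 to 2.33, adjusted p = 0.418). CTR replicate 3 was close to NPM1 KD replicate 3 for *Hira*, and the groups overlapped. Of the remaining 5 of the 46 genes, *Npm2* and *Chaf1a*, the large subunit gene of CAF-1, had mean normalized counts of 0.961 and 1.05, and *Nap1l2*, *Nap1l3* and *Tspyl5* were listed at 0 in every library; these are named to account for the whole list.

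**Figure D4:**
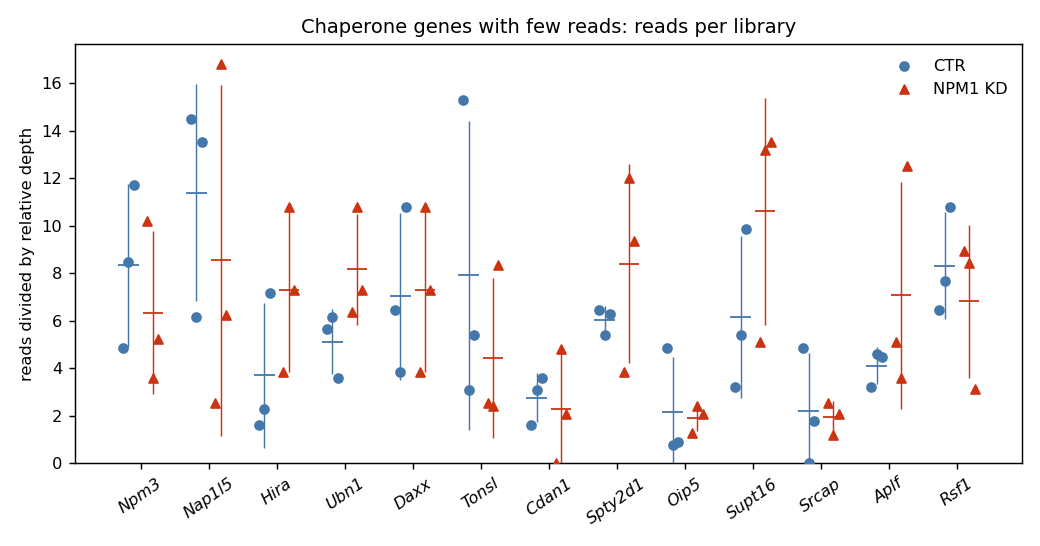
Whole reads divided by relative depth (vertical axis) for *Npm3* and the 12 other chaperone genes with few reads, in CTR (blue circles) and NPM1 KD (red triangles), with group means (horizontal lines) and 1 SD (vertical lines, stopped at 0). *Npm3* runs from 4.83 to 11.7 in CTR and from 3.60 to 10.2 in NPM1 KD, and only *Ubn1* has groups that do not overlap.

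The 5 tested genes with profiles nearest to that of *Npm1* over the 6 libraries, after subtraction of the CTR mean, held no histone chaperone. These are too few to say anything about the chaperone genes as a group. Of 5751 other tested genes 2 had a distance of 0, which means the same step of 2 in each library. These were *Scd2*, which codes for a fatty acid desaturase, with 8 in each CTR and 6 in each NPM1 KD library, and *Ier3*, an early response gene, with 6 and 4. The next 3, at a Euclidean distance of 1, were *Chgb* (a secretory granule protein, and a marker on the neuroblastoma list), *Myadm* and *Aldoc* (a glycolytic enzyme of the nervous system). The rlog values of *Chgb* were 8, 8 and 7 in CTR and 6 in each NPM1 KD library, those of *Myadm* 7, 7 and 8 against 5 in each, and those of *Aldoc* 7, 6 and 6 against 4 in each. *Npm1* was one of 5 genes with a log2 fold change of −2 or below and had rank 4 in the order of p-values.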

How the data were processed

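Per the file headers and sample labels, the authors deposited 1 rlog score per gene and library (log2 scale, from DESeq2) for 3 CTR and 3 NPM1 KD libraries of N2a cells, and a table with the mean normalized count of each gene over the 6 libraries beside the fold changes and p-values of their own comparison, which were not used. The submitters' processing notes name minimap2, featureCounts, DESeq2 and GRCm39, without versions or settings, so how reads shared between a gene and its processed pseudogenes were counted is not known. The 10 genes, the gene lists and the limit on the variance were chosen with earlier results of these data known.

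Numbers were read with decimal commas, and 257 repeated rows of gene identifiers were removed from 26913, leaving 26656, of which 11880 are at 0 in every library. The 5752 genes whose rlog values averaged log2 of 10 or more were fitted with lmFit and eBayes with an intensity trend (limma 3.58.1, R 4.3.3), two-sided, and any within-group variance was raised to at least 0.0833, which is the variance of a rounding error over 1 whole step. Standard errors then lay between 0.266 and 0.405. The named genes are the 10 genes, other listed chaperones past the threshold or without overlap between conditions, the next 10 by mean normalized count, and the 5 genes nearest to *Npm1* in profile, with exceptions stated in the text.

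Relative depth and whole reads were worked out from the deposited mean normalized counts. The 6 most frequent values are those of a single read in 1 library, and with them 4465 of 4465 genes with a mean below 2 had exactly 1 solution in whole reads. Depths were placed on libraries by 1933 genes with decimals in the rlog table (correlation 0.997 for the best of 720 placements, 0.636 for the next). Of 4339 genes with a mean from 2 to below 10, 4332 had 1 solution, 4327 of which (99.88%) follow the rounded rlog values within 0.25; these 4332 were fitted with limma voom. Intervals of reads cover counting error and the spread between libraries, and PCR copies cannot be told from molecules. The fits and the recovery of reads were tested on simulated data. The changes simulated for the fits were all larger than 2-fold, so how well smaller ones are found was not tested. Alternatives were no variance limit, no trend, no filter, centred libraries, 20 random draws of the unrounded values, a replicate block, whole reads, and leaving out each library; the block and the libraries left out in the whole reads and the sets of *Asf1a* reads were added after the data had been seen. Same-numbered libraries deviated together at most weakly (correlations of 0.009, 0.001 and 0.03 in the rlog values and 0.021, 0.008 and 0.035 in the whole reads). Whether the libraries were paired cannot be told from these values, and no pairing was assumed.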

Additional observations from a re-analysis of the deposited data

How the results depend on the processing

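Among the 9 tested and the 29 other chaperone genes, no alternative fitted to the rlog values called a gene higher. Over the whole table, no variance limit and no trend called 123 and 132 genes higher. The other rlog alternatives called 0 to 4, so the absence among chaperone genes says little there. The whole reads cover 12 other chaperone genes instead of the 29. *Npm1* stayed lower and past the threshold under all alternatives that gave it a value except 1. Random draws of the unrounded values gave −1.97 with an adjusted p of 0.855 from limma, so that 0 instead of 1 of the 9 genes was lower. Leaving out 1 library at a time left its log2 fold change at −2, with an adjusted p from 0.00022 to 0.00106. Without the variance limit and without the intensity trend, 1 of the other chaperones was lower (*Hjurp*), and under the remaining alternatives 0 were. The *Npm3* difference, 0 in the rlog values, was −0.36 in whole reads, −0.38 in whole reads with the replicate block, and −0.72, −0.29 and −0.12 without CTR replicates 1, 2 and 3 and −0.71, −0.09 and −0.28 without NPM1 KD replicates 1, 2 and 3.

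The number of genes called over the whole table, 4 higher and 24 lower, differed between the alternatives. It was 123 and 178 with no variance limit, 132 and 218 with no trend, 1 and 10 with no filter, 1 and 7 with the replicate block, 0 and 0 with random draws (286 genes at an unadjusted p below 0.05), and 0 and 0 in the whole reads (529 at an unadjusted p below 0.05), which hold only genes with few reads. With 1 library left out it was 0 to 2 higher and 5 to 9 lower, fewer with any of the 6 libraries left out. Whether the replicate numbers pair the samples cannot be told from these values. Same-numbered libraries had correlations of 0.009, 0.001 and 0.03 over the tested genes, and CTR replicate 1 correlated best with NPM1 KD replicate 2 (0.025). In the whole reads those of same-numbered libraries were 0.021, 0.008 and 0.035, each the highest for its replicate. The block changed no call among the chaperone genes. Why the numbers of called genes differed between the alternatives was not tested. Rounding to whole log2 steps limits each chaperone gene with more than a few reads, and for *Npm3* the limit is its 46 reads in all.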

Other observations

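Several of the small differences among the 9 tested genes of the set and the 29 other tested chaperone genes came from a single library. CTR replicate 3 alone stood 1 step above 5 otherwise equal libraries for *Set*, *Anp32e*, *Dek* and *Chaf1b* (the middle subunit gene of CAF-1), a pattern that 1.72% of all tested genes had. NPM1 KD replicate 2 alone stood 1 step below for *Nap1l4*, *Ncl* and *Hat1*, as in 2.94% of tested genes. For *Tspyl1*, *Ipo4* (an importin that carries H3-H4) and *Sart3* it was NPM1 KD replicate 1 that stood alone below, as in 3.51% of tested genes, and for *Ptma* CTR replicate 1 stood alone above (1.95%). These 11 genes were picked out after their values had been seen, and none of their differences passed the test. Whether chaperone genes have such patterns more often than other genes was not tested.

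A further 3 genes with few reads are named outside the rule for named genes, after their values had been seen. The NAP relative *Nap1l5*, an imprinted gene of the nervous system, had 18, 8 and 15 reads in CTR and 2, 14 and 6 in NPM1 KD. After division by relative depth NPM1 KD replicate 2 had the highest value of the 6 libraries (16.8) and NPM1 KD replicate 1 the lowest (2.55), and the log2 fold change was −0.60 (SE 0.486, adjusted p = 0.617 from limma voom). *Tonsl*, which codes for a reader of new H4 at replication forks, had 19 reads in CTR replicate 1 and 2 to 8 in the other 5 libraries, with a log2 fold change of −0.56 (SE 0.604, adjusted p = 0.723). *Daxx*, the H3.3 chaperone that works with ATRX, had 8, 5 and 12 reads in CTR and 3, 9 and 7 in NPM1 KD, and a log2 fold change of 0.16 (SE 0.492, adjusted p = 0.916). In all 3 genes the spread within a condition was wider than the difference between conditions.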
